A study of Mus musculus with 8 samples.

Results

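A set of 10 mouse genes was followed across genotype and day in this series: Cdh5, Pecam1, Cldn5, Esam, Emcn and Eng, which encode junction and surface proteins of endothelium, and Erg, Fli1, Etv2 and Tal1, which encode transcription factors of the ETS family and the basic helix-loop-helix factor TAL1. They were chosen by name, with no measured value in the rule, but with earlier results of these data known. Each of them was found among the 24421 genes of the expression table. Messenger RNA had been sequenced in 4 groups of 2 libraries: Hira-null at day 15, WT W9.5 at day 15, Hira-null at day 0 and WT W9.5 at day 0. All of these mouse embryonic stem cells carried HA-tagged H3.3, the mutant was a single clone, and day 15 followed hanging drop differentiation without LIF and plating of embryoid bodies to give beating cardiac cultures. Values are FPKM, fragments scaled by gene length and library size, and 6897009 to 11088705 fragments per library (median 8764772) were recovered from the steps of the table. Hira encodes a subunit of the chaperone complex that places H3.3, a histone variant, into chromatin without replication. It was at 12.4 and 11.4 FPKM in Hira-null at day 0, against 27.3 and 28.5 FPKM in WT (log2 fold change, log2FC, −1.17, adjusted p = 8.48e-05). At day 15 it was at 16.7 and 19.8 FPKM in the libraries labelled Hira-null, against 15.8 and 15.5 FPKM in WT (log2FC 0.20, adjusted p = 0.167). The labels at day 15 were thus not borne out by a lower Hira level, and every genotype difference at day 15 given here is between libraries as labelled.

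Endothelial cells line vessels and the inner heart and are held together by adherens and tight junctions. They arise from mesoderm through a progenitor, often called the hemangioblast, that also gives rise to the first blood cells. In the mouse embryo, ETV2 acts at the top of this step, TAL1 drives the blood branch and supports endothelium, and FLI1 and ERG then maintain endothelial genes through the GGAA core that ETS proteins bind. PECAM-1 is not confined to vessels, since undifferentiated mouse embryonic stem cells also carry it on their surface.

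Promoter sequence is shown for a few members because ETS proteins recognise GGAA and because Emcn, whose day 15 values overlapped between genotypes, can be set beside Eng, Tal1 and Cldn5. The RefSeq promoter table, built on GRCm38.p6, held 9 starts for 6 members, namely Cldn5, Emcn, Eng, Erg, Etv2 and Tal1, with 3 for Erg and 2 for Tal1. The 250 bases before the start are printed, and each printed sequence matched NCBIM37, the mm9 build, exactly and at a single place. Those places are chr2:32501865-32502114 on the plus strand for Eng, chr4:114728781-114729030 on the plus strand for Tal1, chr16:18776690-18776939 on the plus strand for Cldn5 and chr3:137003792-137004041 on the plus strand for Emcn. Capitals mark GGAA, or TTCC where the core lies on the other strand.
Eng: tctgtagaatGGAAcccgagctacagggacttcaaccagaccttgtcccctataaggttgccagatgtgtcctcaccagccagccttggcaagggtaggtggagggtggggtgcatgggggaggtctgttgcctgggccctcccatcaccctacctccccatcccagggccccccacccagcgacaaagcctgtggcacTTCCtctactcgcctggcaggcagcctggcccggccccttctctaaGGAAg
Tal1: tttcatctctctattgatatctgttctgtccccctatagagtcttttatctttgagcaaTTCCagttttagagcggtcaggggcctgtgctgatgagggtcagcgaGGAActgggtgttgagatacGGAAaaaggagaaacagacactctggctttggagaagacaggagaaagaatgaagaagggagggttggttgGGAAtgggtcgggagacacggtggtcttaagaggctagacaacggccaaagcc
Cldn5: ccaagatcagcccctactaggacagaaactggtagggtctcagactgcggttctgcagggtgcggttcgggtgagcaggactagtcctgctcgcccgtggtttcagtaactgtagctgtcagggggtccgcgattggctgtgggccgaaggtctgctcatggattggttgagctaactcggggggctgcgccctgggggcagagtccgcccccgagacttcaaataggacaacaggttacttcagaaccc
Emcn: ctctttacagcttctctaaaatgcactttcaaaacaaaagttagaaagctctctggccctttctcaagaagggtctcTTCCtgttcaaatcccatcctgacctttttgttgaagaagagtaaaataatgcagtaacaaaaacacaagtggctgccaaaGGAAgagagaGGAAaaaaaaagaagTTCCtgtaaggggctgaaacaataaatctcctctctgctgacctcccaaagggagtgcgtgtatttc
The core occurred 3 times for Eng, 4 times for Tal1, 0 times for Cldn5 and 4 times for Emcn. Among all 32851 RefSeq promoters of this length, 93.4% held it on either strand, with a median of 3 matches. The longer ETS motif CGGAAG, or the same letters with A in place of the opening C, overlaps the core and occurred 2 times each for Eng and Emcn and 0 times each for Tal1 and Cldn5, against 39.2% of all promoters with at least 1. CAGATG, an E-box that TAL1 with its partners can bind, occurred 1 time for Eng and 0 times in the other printed sequences, against 14.4% of all promoters. The motif of the GATA factors, written GATAA here, occurred 1 time for Tal1 and 0 times in the other printed sequences, against 22.6% of all promoters. The other start of Tal1, at chr4:114730166-114730415 and not printed, held the core 3 times and GATAA 0 times. Also not printed were the start of Etv2, with the core 10 times, and the 3 starts of Erg, with it 0, 4 and 2 times. A match of letters is a description and not a binding site.

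At day 15 the junction and surface genes of endothelium were mostly lower in the libraries labelled Hira-null, with Cdh5 and Pecam1 furthest apart and Emcn overlapping WT. Log2(FPKM + 1) was fitted with limma over the 14337 genes that reached FPKM 1 in 2 or more libraries, with Benjamini-Hochberg adjustment over all of them. Of the 10 genes 9 entered this fit. Erg did not, as no library reached FPKM 1. Tal1 passed the filter through the 2 WT libraries at day 15 only, and Cdh5 and Etv2 passed it through WT libraries of both days only, so the direction of these 3 was in part fixed by the filter. Of the 9 genes tested, 7 passed the test as lower in the libraries labelled Hira-null (adjusted p of 0.05 or less), 2 did not pass it and 0 were higher, and their median log2FC was −0.85. Over all genes tested 18.8% were lower and 18.6% were higher, with a median of 0.01. Both libraries labelled Hira-null lay below both WT libraries for 8 of the 9, against 34.3% of all genes tested. With no filter on low values, over 19134 genes with a fragment in any library, 5 of the 10 were lower (Cdh5, Pecam1, Eng, Fli1 and Tal1), against 13.2% of those genes. Only Cdh5, Pecam1 and Eng passed under each of the 16 alternative settings in which this comparison was refitted. Leaving out WT day 15 replicate 1 left 3 of the 9 past the test, and so did leaving out WT day 15 replicate 2. Calls were lost in related lists too, with 12 other junction and surface genes past the test in each refit in place of 20. The share of all genes past the test in these refits is not given here, for this set or for the lists below. In mixed cultures fewer endothelial cells and less RNA per cell cannot be told apart.

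**Figure D1:**
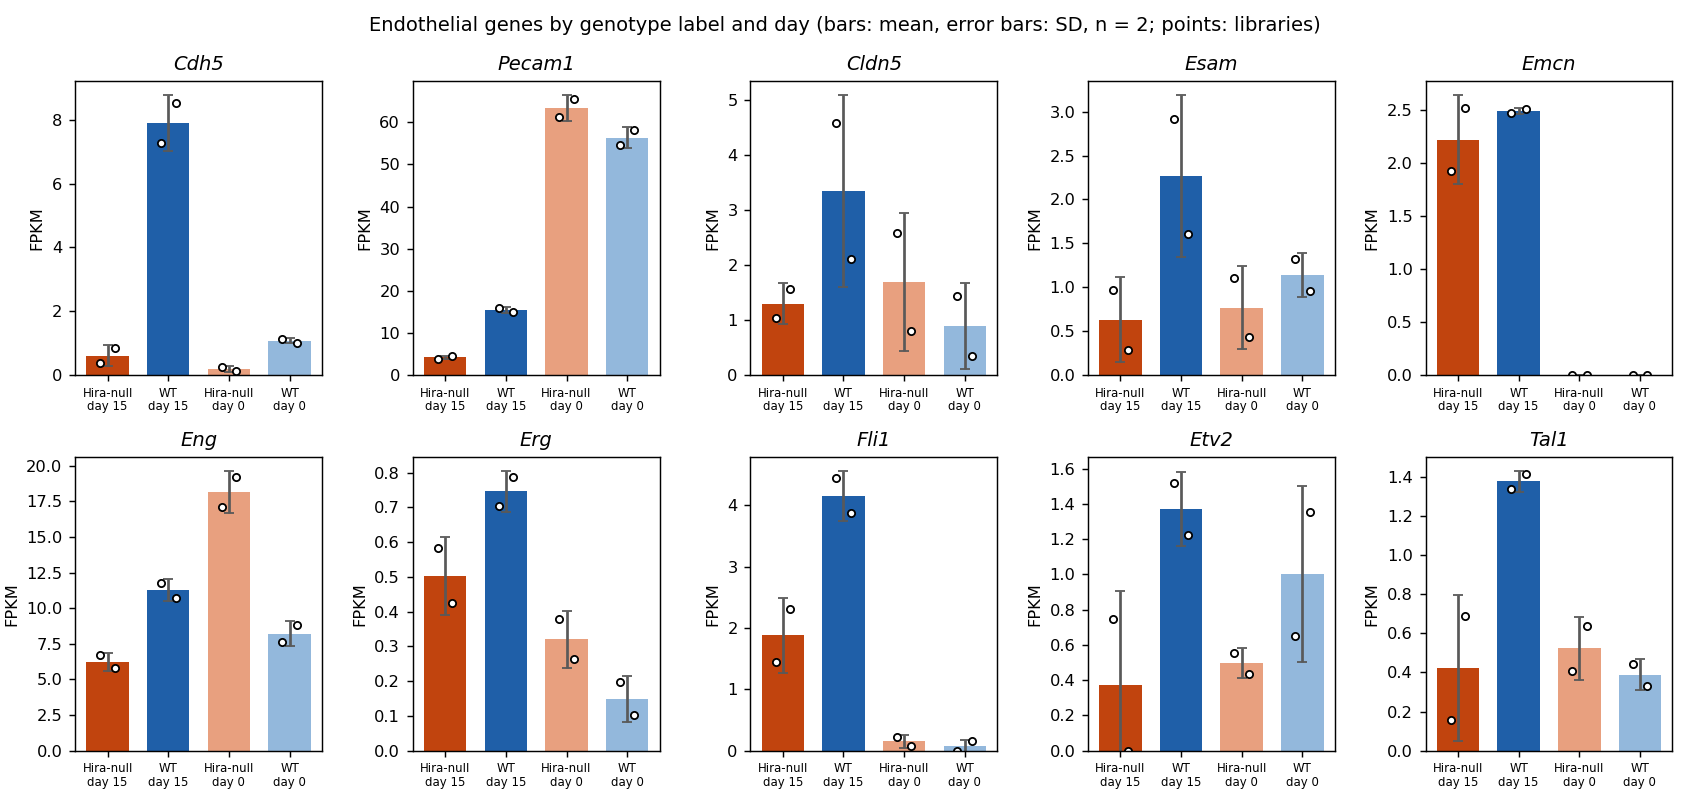
FPKM of the 10 genes (vertical axis of each panel) by genotype label and day, with bars for means, error bars for SD (n = 2) and points for libraries. At day 15 the bars of Cdh5 and Pecam1 are lower for the Hira-null label (0.605 and 4.16 FPKM) than for WT (7.90 and 15.5 FPKM), whereas those of Emcn are close (2.22 and 2.49 FPKM).

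Cdh5 encodes VE-cadherin, the adhesion molecule of the endothelial adherens junction, and lies at chr8:106625525-106668402 of NCBIM37. It was at 0.366 and 0.843 FPKM in the day 15 libraries labelled Hira-null (13 and 32 fragments), against 7.27 and 8.52 FPKM in WT (273 and 398 fragments). The groups did not overlap, and the WT mean was 13.1 times the other (log2FC −2.48, standard error, SE, 0.19, adjusted p = 6.59e-05). At day 0 it was at 0.256 and 0.114 FPKM in Hira-null (7 and 4 fragments), against 1.12 and 1.01 FPKM in WT (33 and 34 fragments). Cdh5 was therefore already lower in Hira-null stem cells (log2FC −0.80, SE 0.19, adjusted p = 0.00891), though not past the test without Hira-null day 0 replicate 2 (adjusted p = 0.0670). Of the 4 groups WT at day 15 was highest and Hira-null at day 0 lowest, and no neighbours in that order overlapped.

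Pecam1 encodes PECAM-1, an adhesion protein of endothelial cell borders and of platelets and leukocytes, and lies at chr11:106515531-106611942 of NCBIM37. It was at 3.87 and 4.44 FPKM in the day 15 libraries labelled Hira-null, against 16.0 and 15.004 FPKM in WT. The WT mean was 3.72 times the other, with no overlap (log2FC −1.68, SE 0.10, adjusted p = 1.60e-05). Its highest values were in stem cells, at 61.2 and 65.6 FPKM in Hira-null and 54.6 and 58.2 FPKM in WT, a difference that did not pass the test (log2FC 0.17, 95% interval −0.04 to 0.38, adjusted p = 0.189). Pluripotency markers were still measurable at day 15. The sum of 8 such genes was 445 to 464 FPKM in the libraries labelled Hira-null and 340 to 350 FPKM in WT. Of these 8 genes 5 passed the test as higher and 2 as lower, against 18.6% and 18.8% of all genes tested. The part of remaining stem cells in the day 15 level of Pecam1 was not tested.

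Cldn5 encodes claudin-5 of the endothelial tight junction and ESAM, encoded by Esam, is an immunoglobulin-like adhesion molecule at the same contacts. Both were low. Cldn5 was at 1.03 and 1.56 FPKM in the day 15 libraries labelled Hira-null (13 and 21 fragments), against 4.57 and 2.11 FPKM in WT (61 and 35 fragments). The groups did not overlap but the 2 WT libraries were far apart, and the difference did not pass the test (log2FC −0.87, 95% interval −1.82 to 0.08, adjusted p = 0.135). At day 0 Cldn5 was at 2.57 and 0.804 FPKM in Hira-null (25 and 10 fragments), against 1.44 and 0.334 FPKM in WT (15 and 4 fragments), and these overlapped. The gene lies at chr16:18776940-18778353 of NCBIM37, 98776 bases from Hira with 4 protein-coding genes between them. Esam, at chr9:37335663-37345904, was at 0.969 and 0.283 FPKM in the day 15 libraries labelled Hira-null (16 and 5 fragments), against 2.92 and 1.61 FPKM in WT (51 and 35 fragments). Its difference passed the test (log2FC −1.01, SE 0.29, adjusted p = 0.0261) but the call was lost on leaving out a WT library of day 15 (adjusted p 0.229 for replicate 1, 0.0563 for replicate 2) or replicate 2 labelled Hira-null (0.135). At day 0 Esam was at 1.10 and 0.430 FPKM in Hira-null, against 1.32 and 0.958 FPKM in WT, and these overlapped.

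Emcn encodes endomucin, a sialomucin of venous and capillary endothelium, and lies at chr3:137004031-137095149 of NCBIM37. It was listed at 0 FPKM in each of the 4 day 0 libraries. At day 15 it was at 1.92 and 2.52 FPKM in the libraries labelled Hira-null, against 2.47 and 2.51 FPKM in WT. These values overlapped (log2FC −0.12, 95% interval −0.50 to 0.25, adjusted p = 0.592). Emcn was the only 1 of the 10 whose day 15 genotype groups overlapped. It rested on 25 and 35 fragments in the libraries labelled Hira-null and 34 and 43 in WT.

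Eng encodes endoglin, a co-receptor for TGF-beta and BMP9 on endothelium that is also carried by early mesoderm, blood progenitors and stroma. It was at 6.69 and 5.79 FPKM in the day 15 libraries labelled Hira-null, against 11.8 and 10.7 FPKM in WT (log2FC −0.76, SE 0.13, adjusted p = 0.00223). At day 0 the order was turned round, with 17.1 and 19.2 FPKM in Hira-null, against 7.61 and 8.81 FPKM in WT (log2FC 1.06, SE 0.13, adjusted p = 3.31e-04). Neither pair overlapped, so Eng was highest of all in Hira-null stem cells and lowest in the day 15 libraries with the same label. The gene, at chr2:32502115-32538189 of NCBIM37, shares exons with Ak1 on the same strand and Fpgs on the other, and since no source used here gives the use of strand in counting, its values are uncertain. Ak1, an adenylate kinase, was higher by label at both days (log2FC 0.78 at day 15, adjusted p = 6.30e-04, and 0.84 at day 0, adjusted p = 3.45e-04), and Fpgs, a folate enzyme, did not pass the test at either (log2FC −0.21, adjusted p = 0.160, and 0.10, adjusted p = 0.493).

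The transcription factors were low throughout, with the highest single value 4.45 FPKM. Fli1, at chr9:32229793-32348974 of NCBIM37, was at 1.45 and 2.32 FPKM in the day 15 libraries labelled Hira-null, against 4.45 and 3.87 FPKM in WT (log2FC −0.85, SE 0.20, adjusted p = 0.0102). Leaving out a WT library of day 15 removed this call (adjusted p 0.0880 for replicate 1, 0.0540 for replicate 2). In stem cells Fli1 gave 5 and 2 fragments in Hira-null and 0 and 4 fragments in WT, too few for a firm difference. Erg, the closest relative of Fli1, lies at chr16:95580776-95808200 and was at 0.583 and 0.424 FPKM in the day 15 libraries labelled Hira-null, against 0.704 and 0.788 FPKM in WT. It rested on 14 to 32 fragments a library at day 15 and 3 to 9 at day 0, and in a fit with no filter its day 15 difference did not pass (log2FC −0.22, adjusted p = 0.201).

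Tal1, at chr4:114729031-114744360 of NCBIM37, was at 0.158 and 0.688 FPKM in the day 15 libraries labelled Hira-null (6 and 28 fragments), against 1.34 and 1.42 FPKM in WT (54 and 71 fragments). The WT libraries were alike and the other pair far apart (log2FC −0.77, SE 0.21, adjusted p = 0.0207). It was no longer called on leaving out a WT library of day 15 (adjusted p 0.0960 for replicate 1, 0.112 for replicate 2) or replicate 1 labelled Hira-null (0.0825). In stem cells Tal1 was at 0.409 and 0.639 FPKM in Hira-null, against 0.445 and 0.332 FPKM in WT. These overlapped, and all 4 values lay below that of the higher day 15 library labelled Hira-null.

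Etv2, at chr7:31418635-31421308 of NCBIM37, was at 0.7496 and 0 FPKM in the day 15 libraries labelled Hira-null (7 and 0 fragments), against 1.52 and 1.22 FPKM in WT (15 and 15 fragments). A count of 0 in that library allows up to 0.301 FPKM, the value of 3 fragments. The difference was just past the test (log2FC −0.84, SE 0.28, adjusted p = 0.0453) and was kept in 7 of the 16 alternative settings. Leaving out a WT library of day 15 (adjusted p 0.233 for replicate 1, 0.152 for replicate 2), replicate 2 labelled Hira-null (0.216) or a Hira-null library of day 0 (0.0573 for replicate 1, 0.0572 for replicate 2) ended the call. In stem cells Etv2 was at 0.556 and 0.434 FPKM in Hira-null, against 0.648 and 1.36 FPKM in WT, with 4 to 12 fragments a library.

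At day 0 the set was not shifted in one direction. Of the 9 genes tested, 1 was higher in Hira-null (Eng), against 20.8% of all genes tested, and 1 was lower (Cdh5), against 19.4%. The median log2FC of the 9 was 0.10, against 0.01 over all genes. Cdh5 was lower by label on both days, whereas Eng was higher at day 0 and lower at day 15. When the 4 groups were ordered by mean, no neighbouring groups overlapped for 3 of the 9 tested genes (Cdh5, Pecam1 and Eng), a share close to the 32.0% of all genes tested, nor for Erg, which was not tested. At least 1 pair of neighbours overlapped for each of the other 6 genes.

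**Figure D2:**
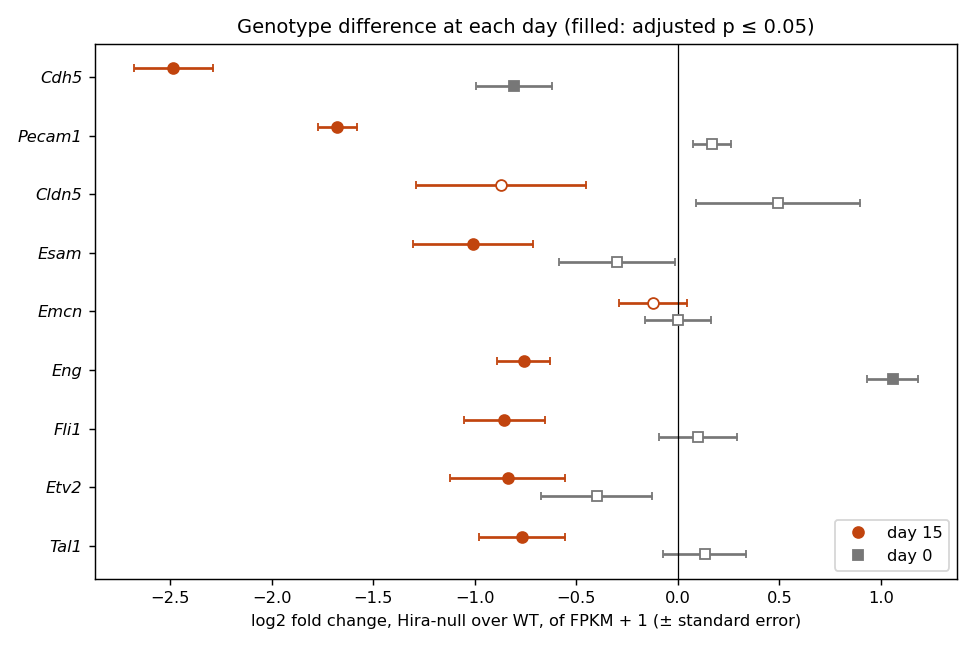
Log2FC of FPKM + 1, Hira-null over WT, with its standard error, SE (horizontal axis) for the 9 genes tested, at day 15 (circles) and day 0 (squares). Filled symbols passed the test. All 9 circles lie left of 0, from −2.48 for Cdh5 to −0.12 for Emcn, whereas the squares lie on both sides.

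In WT part of the set was higher after differentiation. Day 15 was higher than day 0 in WT for 6 of the 9 genes (Cdh5, Cldn5, Emcn, Eng, Fli1 and Tal1), against 36.1% of all genes tested, and lower for 1 (Pecam1), against 33.4%. Tal1 passed the filter only through the WT libraries of day 15, and Emcn and Fli1 only through day 15 libraries, so the direction was fixed for these 3. With no filter 6 of the 10 were higher (Cdh5, Emcn, Eng, Erg, Fli1 and Tal1), against 29.0% of the genes then tested. The median log2FC was 0.78, against 0.03 over all genes. Cdh5 in WT was at 7.90 ± 0.885 FPKM at day 15, against 1.07 ± 0.0815 FPKM at day 0 (SD, n = 2, log2FC 2.10, adjusted p = 1.39e-05). Pecam1 in WT fell to 15.5 ± 0.673 FPKM at day 15, against 56.4 ± 2.54 FPKM at day 0 (log2FC −1.80, adjusted p = 6.43e-07). The rise of Eng in WT was small (log2FC 0.41, adjusted p = 0.0171) and did not survive leaving out WT replicate 1 of day 0 (adjusted p 0.0892) or a WT library of day 15 (0.127 for replicate 1, 0.0513 for replicate 2). That of Cldn5 (log2FC 1.21, adjusted p = 0.0268) did not survive leaving out WT replicate 2 of day 0 (adjusted p 0.162) or WT replicate 1 of day 15 (0.256).

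Under the Hira-null label 2 of the 9 were higher at day 15 than at day 0 (Emcn and Fli1), against 37.5% of all genes tested, and 2 were lower (Pecam1 and Eng), against 36.4%. Their median was −0.12, against 0.01. The filter fixed the direction between days for Fli1 and Emcn here as well. Emcn, at 0 fragments in stem cells, was at least 8.33-fold higher at day 15 under the Hira-null label and at least 9.54-fold higher in WT, taking 3 fragments per library as the floor of day 0. Fli1 differed between the days by 1.31 on the log2 scale under the Hira-null label (adjusted p = 2.77e-04) and by 2.26 in WT (adjusted p = 1.10e-05). Pecam1 under the Hira-null label fell to 4.16 ± 0.404 FPKM at day 15, against 63.4 ± 3.08 FPKM at day 0 (log2FC −3.64, adjusted p = 1.38e-08), so that the day 0 mean was 15.2 times that of day 15. Cdh5 under the Hira-null label, with means of 0.605 FPKM at day 15 and 0.185 FPKM at day 0, did not pass the test (log2FC 0.42, 95% interval −0.01 to 0.86, adjusted p = 0.0705), but passed without Hira-null day 15 replicate 1 (adjusted p = 0.0212), with a pseudocount of 0.1 (log2FC 1.26, adjusted p = 0.0250) or 0.5 (log2FC 0.66, adjusted p = 0.0454) and in a count model on the recovered fragments (adjusted p = 0.0408).

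**Figure D3:**
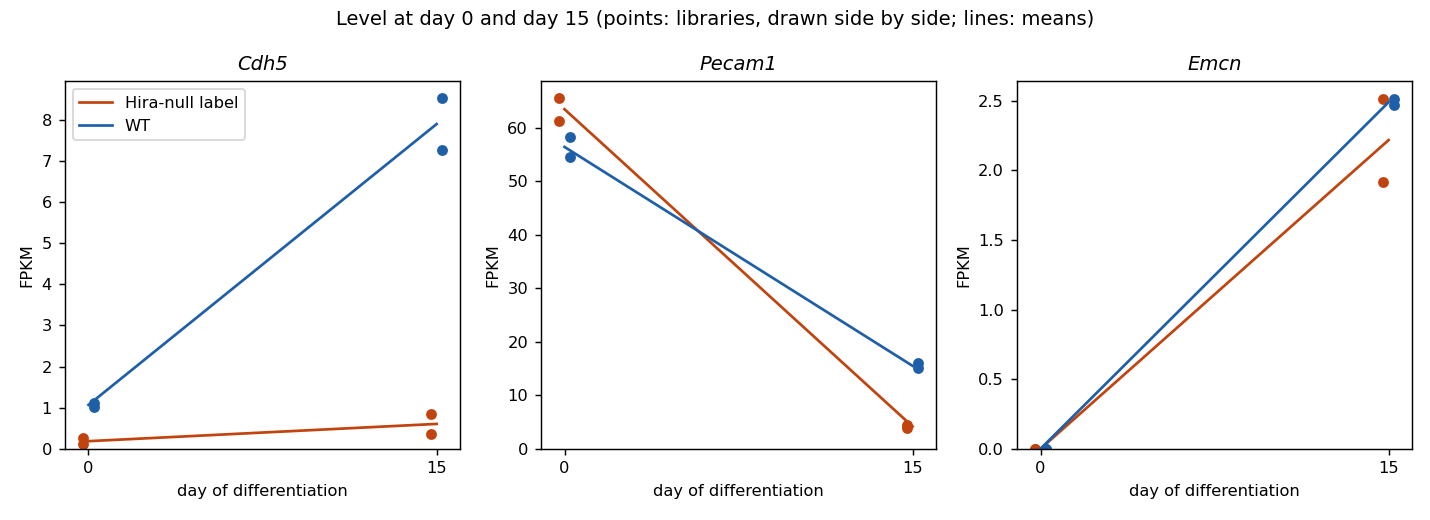
FPKM of Cdh5, Pecam1 and Emcn (vertical axes) at day 0 and day 15 (horizontal axes), with points for libraries and lines joining group means. Cdh5 reaches 0.605 FPKM under the Hira-null label and 7.90 FPKM in WT, Pecam1 declines under both labels and ends at 4.16 FPKM under the Hira-null label and 15.5 FPKM in WT, and the lines of Emcn stay close.

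The genotype difference at day 15 was then set against that at day 0 in the same fit. It was more negative for 5 of the 9 (Cdh5, Pecam1, Eng, Fli1 and Tal1), against 17.7% of all genes tested, and more positive for 0, against 17.5%. The filter, which Tal1 passed through WT at day 15 and Cdh5 through WT libraries, bore on this contrast too. With no filter the same 5 of the 10 were more negative, against 12.6% of the genes then tested. The median was −0.95, against 0.02 over all genes. Pecam1 changed by −1.84 (SE 0.13, adjusted p = 8.68e-05) and Eng by −1.82 (SE 0.18, adjusted p = 2.88e-04), and both passed in all 15 alternatives run. For Cdh5 the change was −1.68 (SE 0.27, adjusted p = 0.00222), but it was not past the test at a pseudocount of 0.1 (−1.51, adjusted p = 0.0916) or in the count model (−1.22, adjusted p = 0.2503). On the FPKM scale the WT mean of Cdh5 was 13.1 times that under the Hira-null label at day 15 and 5.77 times that of Hira-null at day 0. The smaller changes of Fli1 (−0.95, adjusted p = 0.0284) and Tal1 (−0.90, adjusted p = 0.0432) were kept in 8 and 6 of the 15 alternatives. That of Fli1 rests on the 0 to 5 fragments a library at day 0, too few for a firm value.

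The rest of the ETS family did not move together at day 15. Of 18 tested members of 23 in the table, 6 passed as lower in the libraries labelled Hira-null and 2 as higher, against 18.8% and 18.6% of all genes tested, with a median log2FC of −0.06. Ets1, which acts in endothelium and lymphocytes, was at 8.67 and 11.2 FPKM in those libraries, against 20.2 and 19.5 FPKM in WT (log2FC −0.94, adjusted p = 0.00183). In Hira-null stem cells it was lower as well (log2FC −1.21, adjusted p = 4.04e-04). Elf3, an epithelial factor, and Elf4, which acts in blood and endothelium, were lower too (log2FC −0.75, adjusted p = 5.26e-04, and −0.88, adjusted p = 0.00292). Etv5, an FGF-responsive factor, and Erf, an ETS repressor, were higher (log2FC 0.45, adjusted p = 0.00258, and 0.37, adjusted p = 0.00856). At day 0 Elf3, Elf4 and Etv5 were all higher in Hira-null (log2FC 0.72, adjusted p = 5.09e-04, 0.62, adjusted p = 0.0111, and 0.60, adjusted p = 4.58e-04). With WT replicate 1 of day 15 left out 5 of the 18 passed, and with WT replicate 2 left out 4 passed. Elf4 lost its call with the first of these left out (adjusted p = 0.0524) and Erf with the other (adjusted p = 0.0766).

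Among factors that work with TAL1 or in blood-forming endothelium, 15 of 19 were tested. In the day 15 libraries labelled Hira-null 5 passed as lower and 2 as higher, against 18.8% and 18.6% of all genes tested, with a median of −0.13. Lyl1, the closest relative of TAL1, was at 0.249 and 0.525 FPKM, against 1.65 and 1.52 FPKM in WT (log2FC −0.90, adjusted p = 0.00416). Lyl1 passed the filter through the WT libraries of day 15 only, and was still called with no filter (adjusted p = 0.00342). Zfpm1, the GATA cofactor FOG-1, was at 7.72 and 11.4 FPKM, against 28.4 and 21.6 FPKM in WT (log2FC −1.31, adjusted p = 0.00138). Lyl1 and Zfpm1 were higher in Hira-null at day 0 (log2FC 0.66, adjusted p = 0.0139, and 0.90, adjusted p = 0.00663), though Lyl1 then rested on 7 and 11 fragments in Hira-null and 0 and 1 in WT. Cbfb, the partner of RUNX1, was lower at day 0 (log2FC −1.17, adjusted p = 1.97e-04) and at day 15 (log2FC −0.67, adjusted p = 0.00409). Hhex, a homeobox factor of endothelium and endoderm, was also lower at day 15 (log2FC −0.83, adjusted p = 0.00456). Lmo2, the bridge protein of the TAL1 complex, ran the other way at 7.21 and 6.80 FPKM, against 3.41 and 3.86 FPKM in WT (log2FC 0.79, adjusted p = 0.0360). It was past the test in 9 of 16 alternatives and was lost on leaving out any day 15 library (adjusted p 0.241 for WT replicate 1, 0.171 for WT replicate 2, 0.103 and 0.0819 for replicates 1 and 2 labelled Hira-null). Tcf12, an E protein that pairs with TAL1, was higher (log2FC 0.41, adjusted p = 0.00784), though not with WT replicate 1 of day 15 left out (adjusted p = 0.0864). Hhex lost its call with WT replicate 1 or 2 of day 15 left out (adjusted p = 0.0574 and 0.0567) and Cbfb with replicate 2 left out (adjusted p = 0.0747), and 3 of the 15 passed without either WT day 15 library.

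Other junction and surface genes of endothelium were found on both sides. Of 31 tested of 34 in the table, 14 passed as lower in the libraries labelled Hira-null and 6 as higher, against 18.8% and 18.6% of all genes tested, so the higher share was near that of all genes, with a median of −0.41. Icam2, among the lower genes, passed the filter through the WT libraries of day 15 only, which fixed its direction. With no filter 16 of the 34 were lower, against 13.2% of the genes then tested. Another 5 were higher, and the share of all genes higher in that fit is not given here. Without either WT day 15 library 12 of the 31 passed in place of 20. Plvap, the diaphragm protein of fenestrated endothelium, was at 0.278 and 0.573 FPKM, against 4.42 and 5.04 FPKM in WT (log2FC −2.01, adjusted p = 3.97e-04). Tie1, a receptor kinase of endothelium, was at 0.463 and 0.352 FPKM, against 2.63 and 2.64 FPKM in WT (log2FC −1.37, adjusted p = 3.73e-04). It passed the filter through the WT libraries of day 15 only, and was still called with no filter (adjusted p = 5.25e-04). Podxl, a sialomucin of endothelium, podocytes and stem cells, was already lower in Hira-null at day 0 (log2FC −1.34, adjusted p = 1.73e-05). At day 15 it was at 21.4 and 20.8 FPKM, against 39.2 and 43.0 FPKM in WT (log2FC −0.93, adjusted p = 1.13e-04). Jam2, a junctional adhesion molecule of endothelium, neural and stem cells, was on the other side. It was at 33.6 and 28.5 FPKM, against 8.24 and 9.05 FPKM in WT (log2FC 1.73, adjusted p = 2.77e-05). So was Cgnl1, a junction protein of epithelia and endothelium (log2FC 0.78, adjusted p = 0.00114), though it was lower in Hira-null at day 0 (log2FC −0.39, adjusted p = 0.0235). These 5 genes passed in all 16 alternatives. Mmrn2 was higher (log2FC 0.50, adjusted p = 0.0154) but lost its call on leaving out a WT library of day 15 (adjusted p 0.105 for replicate 1, 0.0931 for replicate 2) or replicate 2 labelled Hira-null (0.0698). It was already higher in Hira-null at day 0 (log2FC 0.76, adjusted p = 0.00161), and its change between days did not pass (adjusted p = 0.277).

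**Figure D4:**
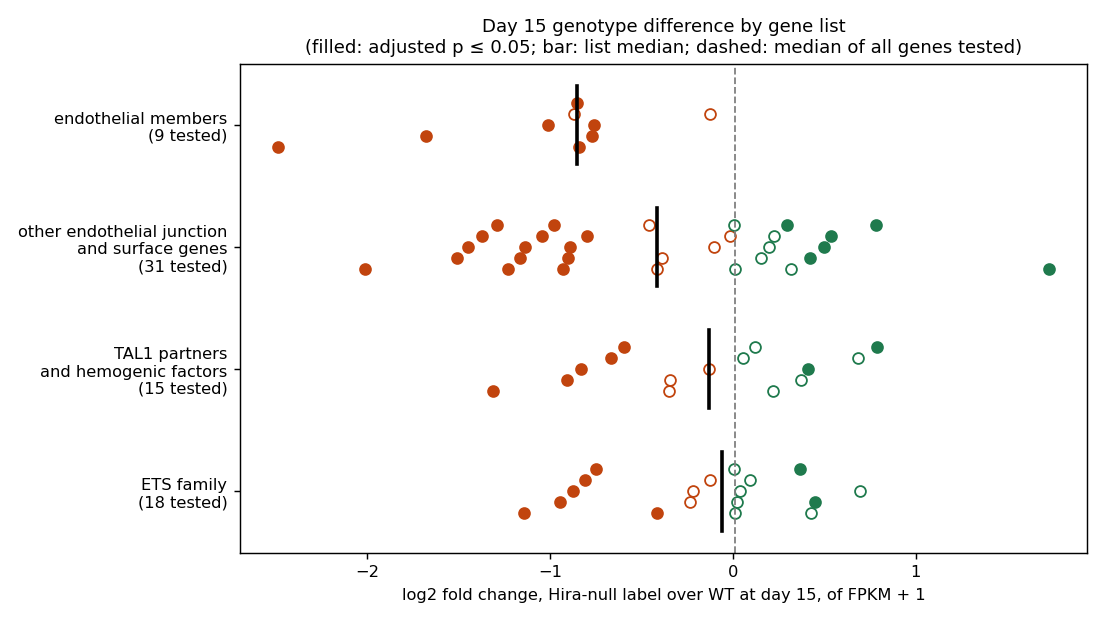
Log2FC at day 15, Hira-null label over WT (horizontal axis), of each tested gene in the endothelial set and in 3 related lists. Filled points passed the test, bars are list medians (−0.85, −0.41, −0.13 and −0.06 from top to bottom) and the dashed line is the median of all genes, 0.01.

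The main VEGF receptor of endothelium did not follow Cdh5. Kdr, which also marks early mesoderm, was at 7.23 and 6.92 FPKM in the day 15 libraries labelled Hira-null, against 6.74 and 6.83 FPKM in WT (log2FC 0.05, adjusted p = 0.812). Flt1 and Tek were lower there (log2FC −0.81, adjusted p = 0.00299, and −0.58, adjusted p = 0.0162). At day 0 Flt1 was lower in Hira-null as well (log2FC −1.11, adjusted p = 4.86e-04), and Tek did not pass (log2FC −0.12, adjusted p = 0.561).

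Some marker lists of other cells were lower at day 15 as well, and others were not. Over all genes tested 18.8% were lower in the libraries labelled Hira-null and 18.6% were higher. All 8 smooth muscle and pericyte markers were lower in the libraries labelled Hira-null, and their sum was 695 to 701 FPKM, against 1040 to 1138 FPKM in WT. Of 8 macrophage markers 7 were tested and 7 were lower, with a sum of 23.4 to 23.5 FPKM, against 55.2 to 59.7 FPKM in WT. Of 8 erythroid markers 5 were tested and 3 were lower, with a sum of 1.86 to 1.97 FPKM, against 62.8 to 70.2 FPKM in WT. Hbb-bh1, Hbb-y and Hba-x were at 0 under the Hira-null label at day 15, and Hba-a1 was at 0 in all 4 groups. Hbb-bh1 was above 0 in WT at day 15 only, so it could pass the filter only there, which fixed its direction. Hbb-y and Hba-x were at 0 in WT at day 0 as well. Pecam1, Tal1 and Fli1 are also expressed in blood cells. Leukocyte markers were lower for 2 of 5 tested of 7, with sums of 14.0 to 15.5 FPKM, against 22.2 to 26.7 FPKM in WT.

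Of 8 visceral endoderm markers 6 were lower and 1 higher, against 18.8% and 18.6% of all genes tested. Their sum was 27.7 to 28.7 FPKM, against 116 to 118 FPKM in WT. The 8 cardiomyocyte markers, the labelled cell type, were present, with a sum of 147 to 148 FPKM, against 225 to 228 FPKM in WT, 4 lower and 1 higher. Neuron markers ran the other way, all 6 higher, with a sum of 241 to 247 FPKM, against 97.5 to 102 FPKM in WT. Of 4 lymphatic endothelial markers 3 were tested, 1 higher and 1 lower, with a sum of 37.1 to 43.5 FPKM, against 29.8 to 32.0 FPKM in WT. The part of these cells in the endothelial result was not tested.

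**Figure D5:**
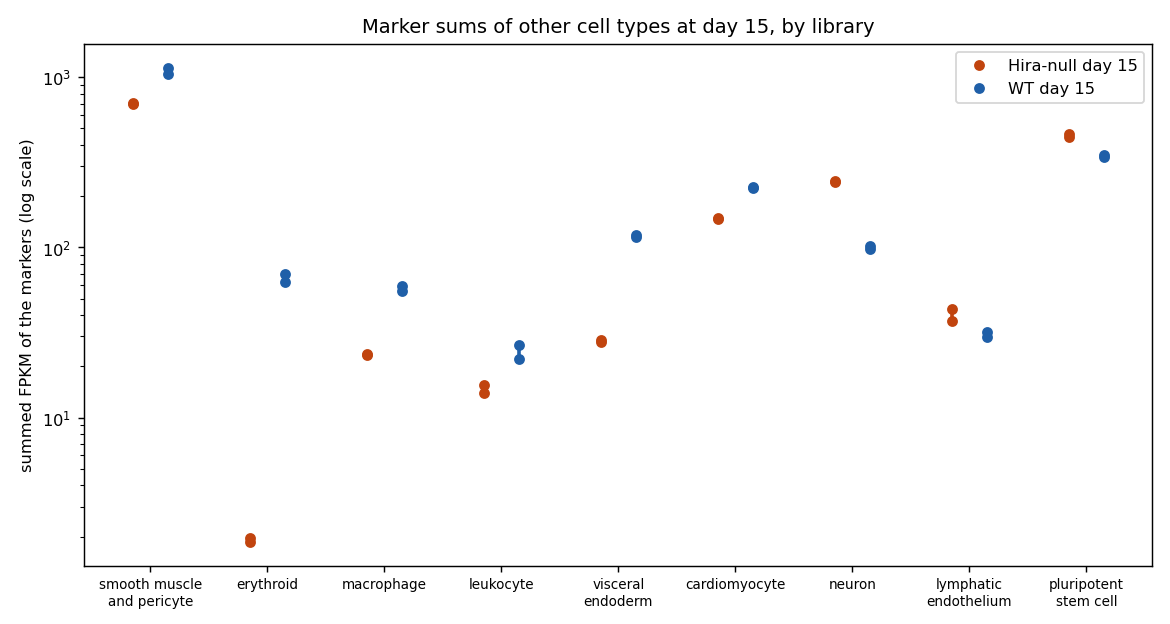
Summed FPKM of marker genes of other cell types (vertical axis, log scale) at day 15, with a point for each library, the Hira-null label left of WT. The sums are lower under the Hira-null label for each type drawn except neurons (241 to 247 FPKM, against 97.5 to 102 FPKM in WT), lymphatic endothelium and pluripotent stem cells.

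Over the 8 libraries, the genes most like Cdh5 by Pearson correlation of log2(FPKM + 1) were Cep95 (0.991), BC017643 (0.989), Sfi1 (0.989), Adam19 (0.986) and Thbd (0.985). Of these Thbd, which encodes the endothelial anticoagulant receptor thrombomodulin, is itself in the list of junction and surface genes. Those most like Pecam1 were Rpl4 (0.998), Ddx19b (0.997), 1700028I16Rik (0.997), Alkbh5 (0.997) and Map2k3 (0.997). The 8 points share 4 groups and 2 days, so these values describe the 4 group levels and carry no test.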

How the data were processed

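Messenger RNA of 8 mouse libraries was sequenced as paired-end reads from a stranded kit. The authors aligned reads to mm9 with Bowtie 0.12.2 and, per the submitters' notes, used DESeq2 1.6.3. The values deposited are FPKM for 24421 genes. The counter, the annotation and whether strand was used are not given in the sources used here. The authors' own comparison tables (mean normalized count, log2 fold change, standard error, statistic, p and adjusted p) were not used.

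Groups came from the genotype and day in the labels, and the methods state 2 biological samples per group. Log2(FPKM + 1) of the 14337 genes that reached FPKM 1 in 2 or more libraries was fitted in limma (version 3.58.1, R version 4.3.3) with a mean for each of 4 groups. Libraries were weighted by day (1.03 at day 0, 0.968 at day 15), moderation followed the mean level, and p-values were adjusted by Benjamini-Hochberg, called at 0.05 (residual degrees of freedom 4, prior 4.70). This scale understates changes of low genes. The fit was tested on simulated data for genes with more fragments on average, scaled for depth, than Etv2, Erg, Emcn, Esam and Cldn5. That test does not cover genes as low as these. Whole fragments were recovered from the FPKM steps as the smallest whole numbers that give the values. Of the values 100% lay within 0.1 of a fragment. The search accepted only steps that bring every value of a gene near a whole number, so this share is no separate check of the counts. Depth, 6897009 to 11088705 per library, therefore covers counting error only. Voom on these fragments, chosen after seeing the data, was the count model.

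The genes and lists were chosen with earlier results of these data known. Named list genes are the 4 with the smallest adjusted p per list at day 15 and up to 3 passing in the other direction. Alternatives were pseudocounts of 0.1 and 0.5, no filter, the replicate block, upper quartile scaling, equal weights, only the libraries of that day and leaving out each library in turn. Positions are from the NCBIM37 annotation and promoters from RefSeq. One list of cell markers is not reported here.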

Additional observations from a re-analysis of the deposited data

Results flagged for a closer look

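The genotype difference changed between the days, by the test of the change itself, for 5 genes. In log2 units, as the difference at day 15 minus that at day 0, the change was −1.84 for Pecam1, −1.82 for Eng, −1.68 for Cdh5, −0.95 for Fli1 and −0.90 for Tal1. Eng alone was past the test on both days with opposite signs. Of these 5, Pecam1 and Eng passed in all 15 alternatives, Cdh5 in 13, Fli1 in 8 and Tal1 in 6.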

How the results depend on the processing

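Of 949 values of single genes under alternative settings, 870 kept direction and side of the threshold, 60 lost the call, 8 gained it and 11 turned direction. Each of the 11 came from leaving out 1 library and none was past the test. The log2 fold change then ran from −0.000279 to 0.98 for Cldn5, −0.00169 to 0.20 for Fli1 at day 0, −0.26 to 0.0107 for Emcn at day 15 and for its change between days. Between the days under the Hira-null label it ran from −0.65 to 0.34 for Cldn5, −0.43 to 0.18 for Esam, −0.58 to 0.23 for Etv2 and −0.39 to 0.15 for Tal1. Equal weights, no filter, the replicate block, only the libraries of that day and leaving out a library outside the comparison cannot move a fold change. Direction was fixed in advance for such values among the 870.

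Leaving out each library in turn gave 3 to 7 genes called at day 15 (7 with all libraries), 1 to 2 at day 0 (2), and 3 to 5 for the change between days (5), and 4 to 9 in the ETS list (8), 3 to 8 among TAL1 partners (7) and 12 to 20 among junction and surface genes (20). Apart from the fit with no filter, the share of all genes called under alternative settings is not given, so such counts are not set against it. The change between days was called for 2 genes at a pseudocount of 0.1 and 3 by voom, against 5. The cause was not tested. Upper quartile scaling moved the all-gene median of day 15 minus day 0 in WT to 0.14, against 0.03.

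Libraries with the same replicate number did not deviate together across groups (correlation of same-numbered deviations −0.10 to 0.05). This cannot show whether they were handled together. With the replicate block 6 genes were called at day 15, 2 at day 0, 8 between days in WT, 4 under the Hira-null label and 6 for the change between days. Genes under about 10 fragments a library, such as Etv2 and Fli1 at day 0, are limited by counting error. With 2 libraries a group and a single clone, p-values measure spread between these samples only.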
